A study of Mus musculus with 100 samples.

Results

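The Ifi200 family, also called HIN-200 or PYHIN, was described in knee joints through its 7 members Ifi202b, Ifi203, Ifi204, Ifi205, Aim2, Mnda and Pyhin1, which were taken from the table of counts by gene name. All 7 were listed and all 7 passed the filter on low counts, out of 17310 genes. The family was selected on the fitted difference of Ifi202b between STR/ort and C57BL/6, which was among the largest of all genes, so differences of Ifi202b between strains, and of its 0-day level in STR/ort or C57BL/6 from later times, are given as a description with no test. The study asked which genes accompany susceptibility to post-traumatic osteoarthritis, to which the labels call STR/ort highly susceptible and MRL/MpJ not susceptible. In mice of STR/ort, of MRL/MpJ and of C57BL/6, all 10 weeks of age, the right knee was injured by a compressive load, and the uninjured contralateral joint of injured mice served as the control. Groups were uninjured joints at 0-day, before any injury (4 libraries per strain), and injured and uninjured joints at 1-day (5 per group), 1-week (5 per group, but 4 for uninjured joints of MRL/MpJ and STR/ort) and 2-weeks (5 per group). The labels name no engineered allele in the 3 strains, so a strain difference holds everything that separates the inbred backgrounds. RNA came from whole joints with traces of soft tissue, and fewer cells of a type and less RNA per cell cannot be told apart in such samples. The 70 libraries of 0-day, 1-day and 1-week are batch 1 and the 30 libraries of 2-weeks are batch 2 in the labels, and a difference of 2-weeks from earlier times cannot be told apart from a difference of batch.

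The family is a group of interferon-inducible proteins encoded side by side on mouse chromosome 1. Most members join a pyrin domain, which recruits partner proteins, to a HIN domain, which binds double-stranded DNA. Aim2 senses DNA in the cytosol and assembles an inflammasome with the adaptor Pycard and caspase-1, and p202, the product of Ifi202b, has HIN domains but no pyrin domain and can hold Aim2 back. Ifi202b is best known as a candidate gene for lupus-like autoimmunity in mice, and C57BL/6 mice are known for expressing very little of it. Macrophages and other myeloid cells, which are found in synovium and marrow, are the cells in which most of the family has been studied.

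In the annotation of the mouse build GRCm38.p6 the 7 members lie within the same stretch of chromosome 1, from Aim2 (chr1:173349547-173466040, plus strand) to Ifi205 (chr1:174011998-174031755, minus strand). Between them are Pyhin1 (now Ifi209, chr1:173630859-173647928, plus strand), Ifi204 (chr1:173747293-173767069, minus strand), Mnda (now Ifi211, chr1:173896339-173913087, minus strand), Ifi203 (chr1:173920400-173942866, minus strand) and Ifi202b (chr1:173962569-173982844, minus strand). RefSeq promoter windows, from 250 bases before to 50 bases after the start of a transcript, were available for 6 of the 7 members, and Ifi204 is named only. The windows of Ifi202b (chr1:173982795-173983094, minus strand), Ifi205 (chr1:174031706-174032005, minus strand) and Mnda (chr1:173912997-173913296, minus strand) are shown because Ifi202b differed most between strains while Ifi205 and Mnda had called rises 1 day after injury. Capitals mark matches to the core of the interferon-stimulated response element (GAAA and GAAA with any 2 bases between them, or TTTC and TTTC on the other strand) and to the gamma-activated sequence core TTCNNNGAA, which reads alike on both strands.
Ifi202b: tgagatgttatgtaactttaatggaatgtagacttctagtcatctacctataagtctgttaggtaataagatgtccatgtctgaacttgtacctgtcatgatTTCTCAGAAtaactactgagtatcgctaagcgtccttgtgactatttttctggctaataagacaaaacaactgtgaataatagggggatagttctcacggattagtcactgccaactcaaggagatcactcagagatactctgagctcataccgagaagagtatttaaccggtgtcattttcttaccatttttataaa
Ifi205: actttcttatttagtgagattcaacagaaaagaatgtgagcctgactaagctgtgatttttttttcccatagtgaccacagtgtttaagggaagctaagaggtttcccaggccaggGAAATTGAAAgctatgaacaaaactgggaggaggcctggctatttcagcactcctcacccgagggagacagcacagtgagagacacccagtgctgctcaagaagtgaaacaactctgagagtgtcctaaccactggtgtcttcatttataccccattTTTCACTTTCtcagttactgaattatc
Mnda: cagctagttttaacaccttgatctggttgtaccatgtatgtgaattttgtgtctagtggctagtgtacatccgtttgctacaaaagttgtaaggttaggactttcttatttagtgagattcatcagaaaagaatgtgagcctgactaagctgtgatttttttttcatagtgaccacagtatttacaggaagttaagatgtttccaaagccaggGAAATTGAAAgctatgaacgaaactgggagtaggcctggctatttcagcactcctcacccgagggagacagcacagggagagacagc
The response element core was found at -134 and 23 from the start site in Ifi205 and at -37 in Mnda, and not in the Ifi202b window, which held 1 gamma-activated core at -148. Among all 32851 mouse promoter windows of this length, 3.44% held the response element core and 8.3% held the gamma-activated core. A window of Ifi203 held the response element core at -35, and those of Aim2 and Pyhin1 held neither core. The windows of Ifi205 and Mnda were identical at 63.0% of their 300 bases when aligned, against 53.3% for Ifi202b with either of them. The build is the genome of C57BL/6J, so these letters are that strain's, and the sequences of STR/ort and MRL/MpJ were not analysed here. A match is a match of letters and not a site shown to be used.

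The members also share transcript sequence, which bears on how reads are counted. No stretch of 50 bases of the Ifi202b transcript occurred in another annotated transcript, whereas 72.9% of such stretches in Mnda, 49.6% in Ifi205, 35.1% in Pyhin1, 30.2% in Ifi204, 8.0% in Ifi203 and 0.93% in Aim2 did. The closest partner of Ifi205 was Mnda and that of Mnda was Ifi205, so their counts are uncertain with respect to each other. How reads with several matches, or on the other strand, were treated is not given in the sources used here, and the effect of sequence differences of STR/ort and MRL/MpJ from the C57BL/6J genome on the counts was not tested. Total counts ranged from 6182016 to 20986027 per library (median 10582591), and levels are CPM, counts scaled to library size with TMM factors, with group values as mean ± SD. To be called, a gene needed both an edgeR adjusted p under 0.05 and a change of more than 1.5-fold.

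Ifi202b was read throughout in STR/ort, at intermediate level in MRL/MpJ and close to 0 in C57BL/6. Before injury the 4 STR/ort joints had 37.3, 35.3, 36.2 and 34.6 CPM. The 4 MRL/MpJ joints had 12.5, 12.6, 14.6 and 17.1 CPM. The 4 C57BL/6 joints had 0.0905, 0.0804, 0 and 0.294 CPM, which were 1, 1, 0 and 3 reads. The 3 strains did not overlap. Pooled over libraries and scaled by library size, reads of Ifi202b were 321-fold more frequent in STR/ort than in C57BL/6 (exact 95% counting interval 137 to 990) and 123-fold more frequent in MRL/MpJ than in C57BL/6 (52.3 to 381). These intervals cover counting error only, and not the spread between mice or the choice of this gene for its large difference. By fitted difference between STR/ort and C57BL/6, Ifi202b ranked 4 among genes higher in STR/ort at 0-day and between 1 and 8 at later times.

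**Figure D1:**
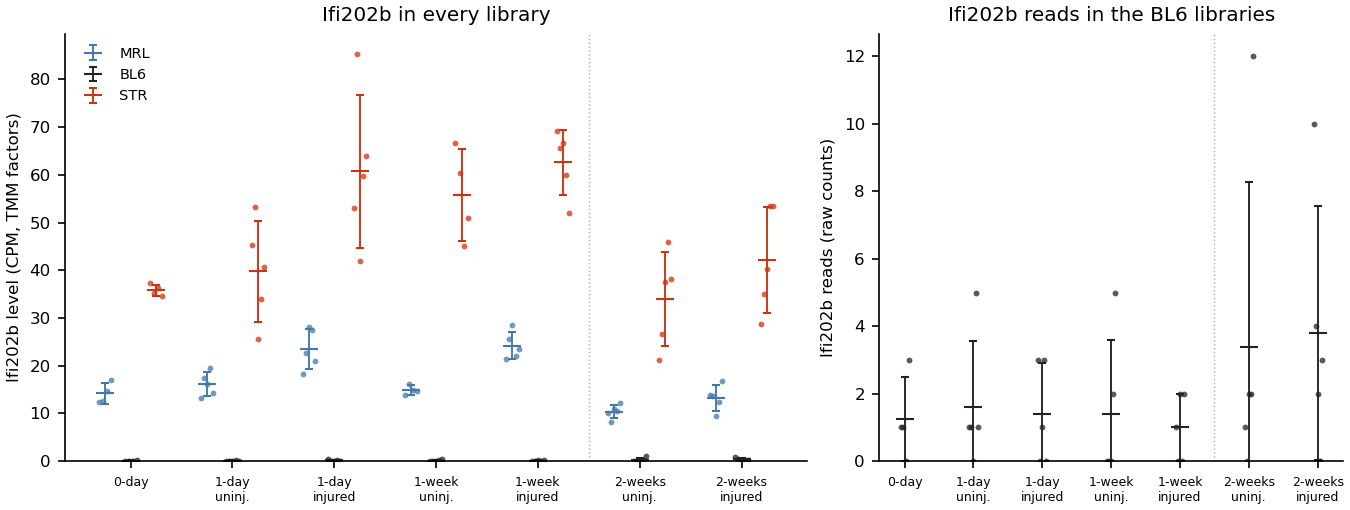
Left, Ifi202b level (CPM, linear axis) in each library by strain, time and joint, and right, raw Ifi202b reads in the C57BL/6 (BL6) libraries, with bars for mean ± SD and a dotted line before batch 2. STR/ort libraries lie between 21.2 and 85.3 CPM and MRL/MpJ libraries between 8.21 and 28.5, while no C57BL/6 library exceeds 1.11 CPM or 12 reads.

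The same order held in all 7 settings of time and joint. Over 33 libraries STR/ort ranged from 21.2 to 85.3 CPM (median 45.3), over 33 libraries MRL/MpJ ranged from 8.21 to 28.5 CPM (median 14.8), and over 34 libraries C57BL/6 ranged from 0 to 1.11 CPM (median 0.112). The C57BL/6 libraries held 68 reads of Ifi202b in all, with 0 reads in 11 libraries and at most 3 reads in 29. The ratio of STR/ort to C57BL/6 lay between 323 and 701 at 1-day and 1-week, and was 102 (exact 95% counting interval 63.3 to 175) in uninjured and 119 (75.9 to 198) in injured joints at 2-weeks. C57BL/6 joints at 2-weeks had 17 uninjured and 19 injured reads, 12 and 10 of them in a single library each. Against MRL/MpJ the fitted difference of Ifi202b in STR/ort was 1.36 ± 0.12 on the log2 scale (SE, n = 4 and 4) at 0-day and 1.34 to 1.93 in the other 6 settings. It is also given with no test, since the STR/ort libraries are those the choice of the family used. With 1 factor of unwanted variation from housekeeping genes (RUVg) it was 0.76 in uninjured and 0.77 in injured joints at 1-day.

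The question at 0-day was which genes differ between the strains before injury. Of the other 6 members, 5 were higher in C57BL/6 than in MRL/MpJ, so that the strain with almost no Ifi202b had the highest level of most of its relatives. Pyhin1, an interferon-induced member now named Ifi209, had 53.0, 68.6, 62.6 and 73.0 CPM in C57BL/6. It had 12.7, 10.1, 10.2 and 12.8 CPM in MRL/MpJ. STR/ort joints were in between, without overlap, at 32.3, 29.9, 20.9 and 25.2 CPM. The difference to MRL/MpJ was 2.53 ± 0.14 on the log2 scale for C57BL/6 (adjusted p = 2.3e-10) and 1.25 ± 0.15 for STR/ort (adjusted p = 3.5e-06).

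Ifi204, which takes part in DNA sensing and myeloid differentiation, had 30.1, 30.1, 23.6 and 34.7 CPM in C57BL/6. In MRL/MpJ it had 9.88, 7.09, 8.96 and 10.9 CPM, and in STR/ort 15.5, 12.7, 8.67 and 9.20 CPM. C57BL/6 lay above both other strains, which overlapped each other, and exceeded MRL/MpJ by 1.74 ± 0.17 (log2, adjusted p = 4.1e-07). Mnda, named after a nuclear antigen of human myeloid cells, had 8.69, 7.32, 5.66 and 7.56 CPM in C57BL/6 against 1.10, 2.09, 1.72 and 1.55 in MRL/MpJ. STR/ort, at 3.1, 1.30, 2.09 and 3.07 CPM, overlapped MRL/MpJ, and the difference of C57BL/6 to MRL/MpJ was 2.23 ± 0.25 (log2, adjusted p = 1.9e-06). Between STR/ort and MRL/MpJ Mnda differed by 0.59 ± 0.30 (adjusted p = 0.14), and without STR/ort replicate 2 by 0.78 (adjusted p = 0.039).

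Ifi203, a nuclear member with pyrin and HIN domains, had 50, 56.9, 54.4 and 62.5 CPM in C57BL/6. It had 31.9, 35.5, 39.4 and 34.8 CPM in MRL/MpJ and 35.4, 35.5, 31.5 and 34.5 CPM in STR/ort, so C57BL/6 again lay above both other strains. The log2 difference to MRL/MpJ was 0.71 ± 0.09 for C57BL/6 (adjusted p = 4.1e-06) and -0.04 ± 0.09 for STR/ort (adjusted p = 0.79). Ifi205, which is induced by interferon in macrophages, had 7.24, 8.52, 6.48 and 7.95 CPM in C57BL/6, 5.09, 5.35, 5 and 4.31 in MRL/MpJ and 6.02, 3.79, 4.59 and 4.29 in STR/ort. Its rise over MRL/MpJ in C57BL/6 was 0.65 ± 0.16 (adjusted p = 0.0041) and was no longer called without C57BL/6 replicate 2 (0.58, adjusted p = 0.018), with 1 RUVg factor (0.55, adjusted p = 0.022) or in 1 fit of all 100 libraries (0.60, adjusted p = 0.056). Aim2 had nearly the same level in the 3 strains, with means of 30.8 ± 1.9 CPM in MRL/MpJ, 32.5 ± 2.2 in C57BL/6 and 37.4 ± 4.5 in STR/ort (SD, n = 4 each). The Aim2 difference of STR/ort to MRL/MpJ, 0.28 ± 0.09 on the log2 scale, passed the adjusted p (0.028) but not the fold.

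Ifi202b is left out of these counts, since its level in C57BL/6 and STR/ort entered the choice of the family. Of the other 6 members, 5 were called between C57BL/6 and MRL/MpJ at 0-day, where 15.9% of all genes tested were called in either direction, and 1 (Pyhin1) between STR/ort and MRL/MpJ, where 14.8% were. The median log2 difference of these 6 was 1.224 for C57BL/6 to MRL/MpJ and 0.31 for STR/ort to MRL/MpJ, while the medians of all genes were 0.014 and 0.0070. With 2 RUVg factors, the calls of Ifi203 (0.46, adjusted p = 0.39), Ifi204 (1.24, adjusted p = 0.051) and Ifi205 (0.31, adjusted p = 0.85) between C57BL/6 and MRL/MpJ were lost. Between STR/ort and C57BL/6, the contrast on which the family was picked and in which 13.8% of all genes were called, the fitted log2 differences were -0.75 for Ifi203, -1.39 for Ifi204, -0.72 for Ifi205, -1.64 for Mnda, -1.28 for Pyhin1 and 0.16 for Aim2, given as a description.

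**Figure D2:**
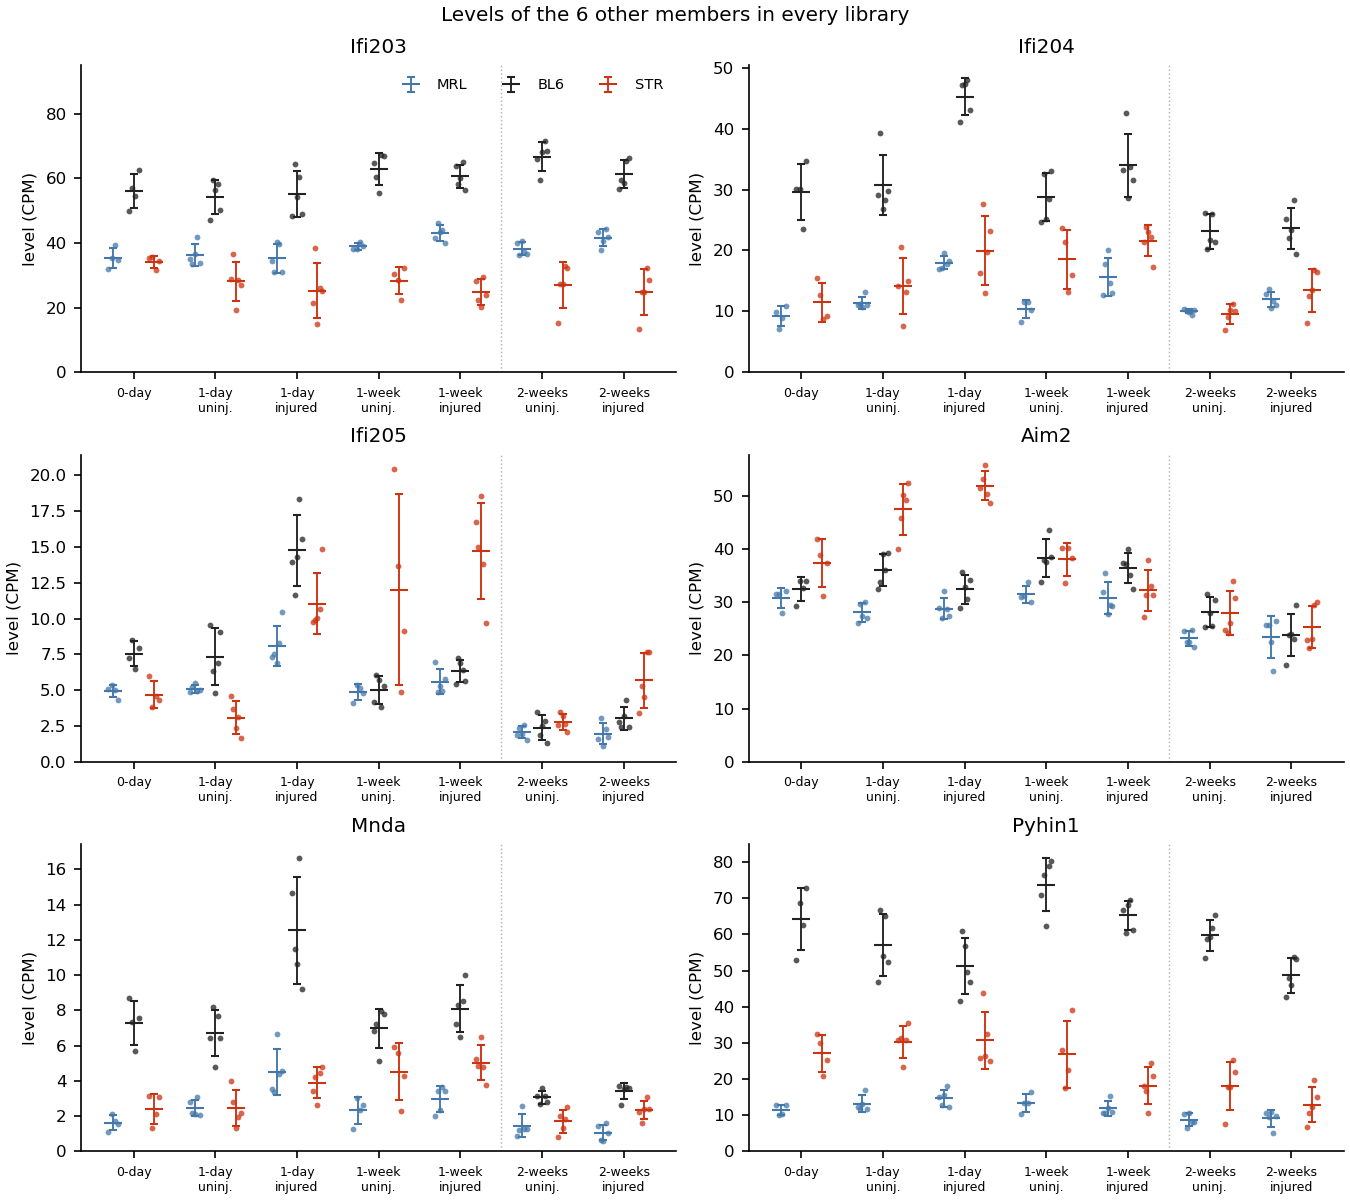
Levels (CPM, linear axes) of Ifi203, Ifi204, Ifi205, Aim2, Mnda and Pyhin1 in each library by strain, time and joint, with bars for mean ± SD and a dotted line before batch 2. The mean of C57BL/6 (BL6) is highest for Ifi203, Ifi204, Mnda and Pyhin1 in all 7 settings, whereas the strain with the highest Ifi205 changes over time.

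Markers of other cell types and tissues differed in level between the strains beside these genes. Between C57BL/6 and MRL/MpJ at 0-day 15.9% of all genes were called. There 8 of 8 skeletal muscle markers were lower in C57BL/6 and their summed level was 31460 to 50570 CPM against 68210 to 83120. All 9 markers of cartilage, bone and synovium were higher in C57BL/6, as were 5 of 12 macrophage and monocyte markers, whose summed level was 3183 to 3634 CPM in C57BL/6 and 3168 to 3489 in MRL/MpJ. No macrophage or skeletal muscle marker was at 0 in these groups. The part of these markers in the members' strain differences was not tested.

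Scaled to 1 kb of transcript, the order of the members differed between strains at 0-day. In STR/ort Ifi202b led at 21.1 ± 0.68 CPM per kb, followed by Aim2 (13.2 ± 1.6), Ifi203 (9.50 ± 0.52), Pyhin1 (7.87 ± 1.5), Ifi204 (5.02 ± 1.4), Ifi205 (2.90 ± 0.59) and Mnda (1.34 ± 0.48). In C57BL/6 the order was Pyhin1 (18.7 ± 2.5), Ifi203 (15.5 ± 1.5), Ifi204 (12.9 ± 2.0), Aim2 (11.5 ± 0.79), Ifi205 (4.68 ± 0.55), Mnda (4.09 ± 0.70) and Ifi202b (0.0686 ± 0.074). In MRL/MpJ it was Aim2 (10.9 ± 0.65), Ifi203 (9.82 ± 0.87), Ifi202b (8.36 ± 1.3), Ifi204 (4.01 ± 0.70), Pyhin1 (3.32 ± 0.43), Ifi205 (3.06 ± 0.27) and Mnda (0.906 ± 0.23). Neighbours whose means differed by less than the sum of their SDs were Ifi203 and Pyhin1, Pyhin1 and Ifi204 in STR/ort, Pyhin1 and Ifi203, Ifi203 and Ifi204, Ifi204 and Aim2, Ifi205 and Mnda in C57BL/6, and all neighbours in MRL/MpJ from Aim2 to Ifi202b and from Ifi204 to Ifi205.

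**Figure D3:**
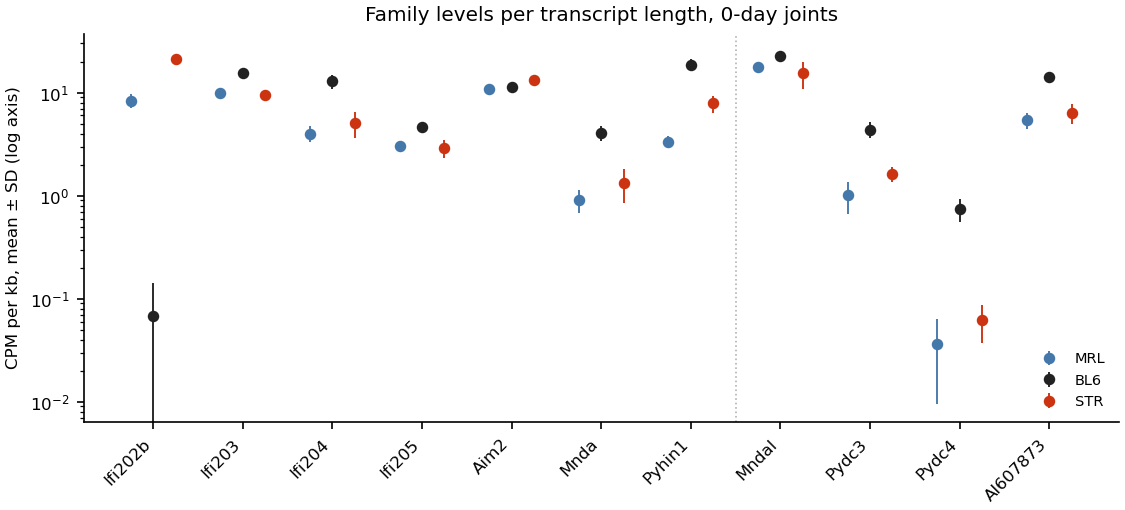
Level per transcript length (CPM per kb, log axis) of the 7 members and, right of the dotted line, 4 other family genes in the 3 strains at 0-day, as mean and SD over 4 libraries. Ifi202b leads in STR/ort at 21.1 and is last in C57BL/6 at 0.0686, where its SD exceeds its mean and the bar runs off the axis.

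After 0-day, in other mice, the strain differences were followed in the uninjured contralateral joints and in the injured joints. Again without Ifi202b, 34 of 54 comparisons of the other 6 members were called in uninjured joints (20 higher and 14 lower in the strain named first) and 34 of 54 in injured joints (21 higher and 13 lower). At 1-day 3 of 6 members were called in uninjured joints between STR/ort and MRL/MpJ (22.6% of all genes), 4 of 6 between C57BL/6 and MRL/MpJ (14.8%) and 5 of 6 between STR/ort and C57BL/6 (10.5%). In injured joints at 1-day the counts were 2 of 6 (20.3% of all genes), 5 of 6 (16.3%) and 5 of 6 (12.4%) in the same order. At 1-week they were 4 of 6 (24.4%), 4 of 6 (8.53%) and 5 of 6 (22.2%) in uninjured and 4 of 6 (29.5%), 3 of 6 (9.47%) and 5 of 6 (25.1%) in injured joints. At 2-weeks they were 1 of 6 (13.8%), 4 of 6 (9.83%) and 4 of 6 (9.78%) in uninjured and 3 of 6 (18.9%), 3 of 6 (11.5%) and 4 of 6 (10.4%) in injured joints. Comparisons of strains share libraries with each other, so their counts are not independent.

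Pyhin1, Ifi204 and Mnda were higher in C57BL/6 than in MRL/MpJ in all 7 settings of time and joint. Over these settings the log2 difference was 1.81 to 2.77 for Pyhin1, 0.99 to 1.74 for Ifi204 and 1.07 to 2.23 for Mnda. Relative to C57BL/6, STR/ort was lower in all 6 later settings for Pyhin1 (-0.75 to -1.92) and Ifi204 (-0.63 to -1.27) and in 5 of 6 for Mnda. Mnda in injured joints at 2-weeks was the exception (-0.56 ± 0.23, adjusted p = 0.064), and it was called without STR/ort injured replicate 4 (-0.67, adjusted p = 0.038) and with 2 RUVg factors (-0.71, adjusted p = 0.027). The Ifi204 difference between STR/ort and C57BL/6 at 1-week was -0.63 in uninjured and -0.67 in injured joints. It fell below the fold in uninjured joints without C57BL/6 replicate 2 (-0.58), C57BL/6 replicate 5 (-0.57), STR/ort replicate 3 (-0.49) or STR/ort replicate 4 (-0.57), and in injured joints without C57BL/6 replicate 2 (-0.54). With 1 and 2 RUVg factors both of these Ifi204 calls were lost, at -0.42 (adjusted p = 0.23) and -0.53 (0.14) in uninjured and -0.47 (0.12) and -0.64 (0.065) in injured joints. That of Mnda at 1-week was -0.65 in uninjured joints, but -0.40 without STR/ort replicate 3 (adjusted p = 0.13), and -0.70 in injured joints, but -0.58 without C57BL/6 replicate 5. Both Mnda calls were also lost with 1 and 2 RUVg factors, by the adjusted p (0.13 and 0.11 in uninjured, 0.063 and 0.069 in injured joints) and not by the difference (-0.77 to -0.96).

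Pyhin1 separated STR/ort from MRL/MpJ as well. It was higher in STR/ort by 1.25 (1-day, uninjured), 1.06 (1-day, injured), 1.02 (1-week, uninjured), 0.59 (1-week, injured) and 1.06 (2-weeks, uninjured) on the log2 scale, all called, and by 0.52 ± 0.23 (adjusted p = 0.077) in injured joints at 2-weeks. Without STR/ort injured replicate 1 the last value was 0.67 (adjusted p = 0.016). The call in injured joints at 1-week was lost without MRL/MpJ replicate 1, 2 or 5 or STR/ort replicate 4 or 5 (0.45 to 0.56), and with 1 RUVg factor (0.17, adjusted p = 0.71), and with 2 the difference turned to -0.16 (adjusted p = 0.83). With RUVg the other 4 calls were lost too. With 1 factor the 1-day differences were 0.46 (uninjured, adjusted p = 0.086) and 0.26 (injured, adjusted p = 0.40). In uninjured joints at 1-week the difference was 0.60 with 1 factor (adjusted p = 0.19) and 0.27 with 2 (adjusted p = 0.73), and at 2-weeks it was 0.40 with 2 (adjusted p = 0.19). Ifi204 differed between STR/ort and MRL/MpJ past both thresholds in 1 of 7 settings, uninjured joints at 1-week (0.84 ± 0.17), and Mnda in 3 of 7, at 1-week (0.94 uninjured, 0.77 injured) and in injured joints at 2-weeks (1.10). With 2 RUVg factors the 1-week calls of Ifi204 (0.78, adjusted p = 0.17) and Mnda (0.55 uninjured, adjusted p = 0.59, and 0.36 injured, adjusted p = 0.70) were lost, as was that of Mnda at 2-weeks (0.67, adjusted p = 0.17). With 1 factor the Mnda calls at 1-week were lost too (adjusted p = 0.21 and 0.23), whereas Ifi204 was called in injured joints at 1-week (0.69, adjusted p = 0.047, against 0.45 without factors).

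The group means of Ifi203 had the same order, C57BL/6 above MRL/MpJ above STR/ort, in all 7 settings, the reverse of Ifi202b. At 0-day the means of MRL/MpJ and STR/ort were close, at 35.4 and 34.2 CPM. Single libraries had 47.2 to 71.6 CPM of Ifi203 in C57BL/6, 30.9 to 46.3 in MRL/MpJ and 13.2 to 38.6 in STR/ort. Ifi203 was lower in STR/ort than in C57BL/6 in the 6 later settings, all called, with log2 differences from -0.94 to -1.31. C57BL/6 exceeded MRL/MpJ past both thresholds in uninjured joints at 1-day (0.62), 1-week (0.70) and 2-weeks (0.80) and in injured joints at 1-day (0.66). In injured joints at 1-week (0.49) and 2-weeks (0.56) the difference passed the adjusted p but not the fold. Without 2-weeks C57BL/6 injured replicate 1 the last was called (0.59), and without 1-day C57BL/6 uninjured replicate 2 the uninjured 1-day call was lost (0.58). With RUVg 3 of these 4 calls were lost, at 0.33 (1 factor, adjusted p = 0.17) and 0.27 (2 factors, adjusted p = 0.24) in uninjured joints at 1-day, 0.42 with either number of factors in injured joints at 1-day, and 0.40 with 2 factors in uninjured joints at 2-weeks, the last 2 under the fold. Between STR/ort and MRL/MpJ, Ifi203 was called in injured joints at 1-week (-0.81 ± 0.09, adjusted p = 1.2e-08) and 2-weeks (-0.74 ± 0.15, adjusted p = 0.00011), and without STR/ort replicate 2 also at 1-day (-0.69, against -0.49 with it). RUVg added 3 calls of this difference. With 1 and 2 factors it was -1.09 and -1.08 in injured joints at 1-day (adjusted p = 0.0023 and 0.0014) and -0.90 and -0.95 in uninjured joints at 1-day (adjusted p = 0.0072 and 0.0035, against -0.32 without factors). With 2 factors it was -1.24 in uninjured joints at 2-weeks (adjusted p = 1.4e-08, against -0.50).

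Ifi205 changed its strain order over time. In uninjured joints at 1-day it was lowest in STR/ort, at 4.60, 3.69, 2.33, 3.1 and 1.65 CPM against 9.54, 6.35, 4.78, 6.93 and 9.09 in C57BL/6. At 1-week it was highest in STR/ort, at 20.5, 13.7, 4.85 and 9.12 CPM against 4.16, 6.04, 5.72, 3.81 and 5.31 in C57BL/6. The 1-day groups did not overlap, whereas at 1-week STR/ort replicate 3 fell within the C57BL/6 range. Summed cartilage, bone and synovium markers in uninjured joints were 19790 to 26590 CPM in STR/ort against 13120 to 18380 in C57BL/6 at 1-day. At 1-week they were 21030 to 35530 against 7007 to 12570 CPM, and B cell markers were 137.1 to 238.7 against 259.1 to 330.1. The part of these markers was not tested. The log2 difference of Ifi205 between STR/ort and C57BL/6 was -1.23 ± 0.20 (adjusted p = 2.7e-05) at 1-day and 1.25 ± 0.25 (adjusted p = 0.00018) at 1-week. In injured joints it was -0.44 ± 0.17 (adjusted p = 0.048) at 1-day, under the fold, 1.21 ± 0.23 (adjusted p = 5.3e-05) at 1-week and 0.89 ± 0.23 (adjusted p = 0.0036) at 2-weeks. Relative to MRL/MpJ, Ifi205 in STR/ort was -0.67 ± 0.21 (adjusted p = 0.01) in uninjured joints at 1-day, a call lost without STR/ort replicate 5 (-0.51) and with 1 RUVg factor (-0.22, adjusted p = 0.71). With RUVg it was instead called higher in injured joints at 1-day (0.91 with 1 or 2 factors, adjusted p = 0.035 and 0.031, against 0.45 without). It was 1.30 ± 0.27 (adjusted p = 0.00027, and with 2 RUVg factors 1.73, adjusted p = 0.060) in uninjured and 1.38 ± 0.23 (adjusted p = 9.1e-06) in injured joints at 1-week and 1.56 ± 0.24 (adjusted p = 3.6e-06) in injured joints at 2-weeks. Between C57BL/6 and MRL/MpJ Ifi205 was called after 0-day in 1 of 6 settings, injured joints at 1-day (0.89 ± 0.17, adjusted p = 0.00013). With RUVg it was also called in uninjured joints at 1-day (0.78 with 1 factor, adjusted p = 0.011, and 0.75 with 2, adjusted p = 0.016). Ifi205 was further called with a library left out, namely uninjured joints at 1-day (0.55, and 0.59 to 0.67 without MRL/MpJ replicate 3 or C57BL/6 replicate 2 or 3) and injured joints at 2-weeks (0.67, and 0.67 to 0.86 without any of 5 libraries).

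Aim2 was called between strains in 3 comparisons, all at 1-day. It was higher in STR/ort than in MRL/MpJ at 1-day in uninjured (0.80 ± 0.07, adjusted p = 2e-10) and injured joints (0.86 ± 0.07, adjusted p = 5.9e-11). In injured joints at 1-day the 5 STR/ort libraries had 51.6, 53.3, 55.9, 50.4 and 48.8 CPM, above all C57BL/6 (28.9 to 35.8) and MRL/MpJ libraries (27.0 to 32.1). The difference to C57BL/6 there was 0.67 ± 0.07 (adjusted p = 1.5e-08), and with 1 RUVg factor it was 0.58, under the fold. At 1-week and 2-weeks no Aim2 difference between strains was called by edgeR, and between C57BL/6 and MRL/MpJ none was called in any of 7 settings, with log2 differences from 0.02 to 0.40.

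**Figure D4:**
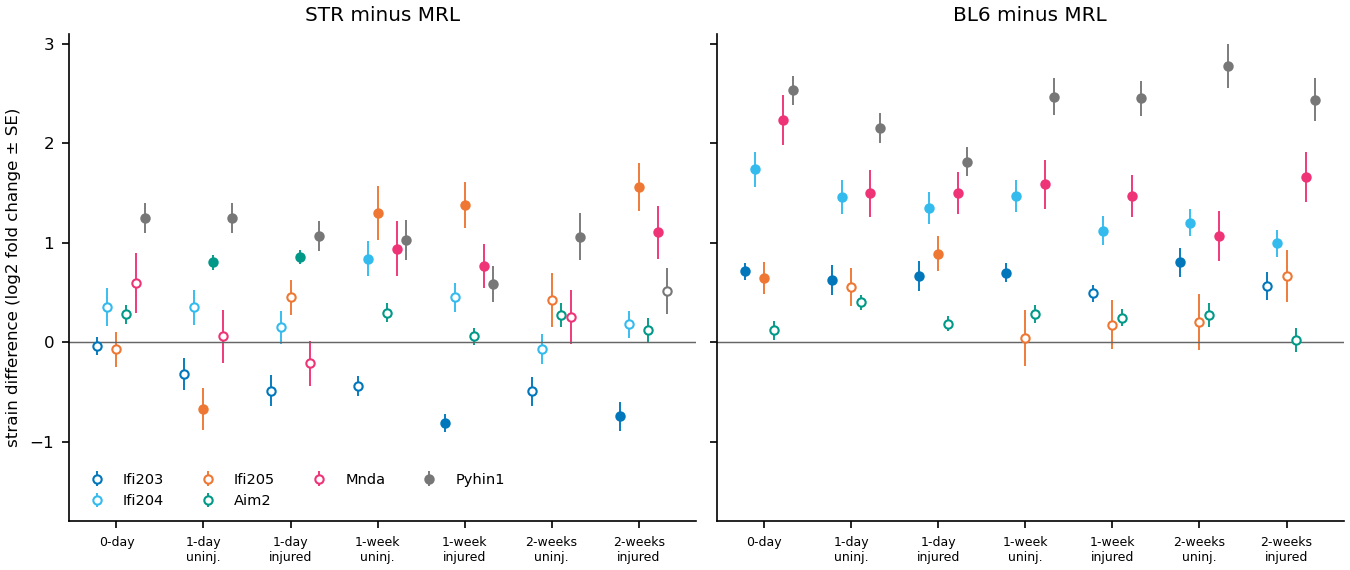
Log2 differences (± SE) of STR/ort (left) and C57BL/6 (right, BL6) to MRL/MpJ for 6 members by time and joint, from edgeR, with filled points for called and open points for uncalled differences. Pyhin1, Ifi204 and Mnda lie above 0 for C57BL/6 in all 7 settings, Ifi205 in STR/ort goes from -0.67 at 1-day to 1.30 at 1-week in uninjured joints, and Ifi202b is left out because the choice of the family used its levels.

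The injury comparison asked which genes change in the injured joint relative to the contralateral joint. Of 63 member comparisons 10 were called, all higher in injured joints, and 7 of the 10 were at 1-day. The 63 include Ifi202b in C57BL/6, where its few reads left little chance of a call. Over the 9 injury comparisons 1.16% to 9.21% of all genes were called in either direction. Ifi205 gave the largest of them. At 1-day in STR/ort it had 9.74, 9.92, 10.1, 10.7 and 14.9 CPM in injured and 4.60, 3.69, 2.33, 3.1 and 1.65 in uninjured joints. In C57BL/6 it had 14.0, 11.6, 14.3, 18.4 and 15.6 CPM in injured and 9.54, 6.35, 4.78, 6.93 and 9.09 in uninjured joints. In MRL/MpJ it had 7.31, 7.51, 6.93, 8.32 and 10.4 CPM in injured and 4.84, 5.20, 5.52, 4.92 and 4.99 in uninjured joints. Injured and uninjured joints did not overlap in any of the 3 strains.

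The rise of Ifi205 at 1-day was 1.81 ± 0.20 (log2, adjusted p = 8.3e-08) in STR/ort, where 4.31% of all genes were called, 1.03 ± 0.17 (adjusted p = 6.8e-05) in C57BL/6, where 5.6% were, and 0.69 ± 0.19 (adjusted p = 0.033) in MRL/MpJ, where 2.02% were. The call in MRL/MpJ was lost without injured replicate 2, 4 or 5 or any of the 5 uninjured replicates (0.57 to 0.71, adjusted p = 0.060 to 0.090), in 1 fit of all 100 libraries (0.67, adjusted p = 0.056) and with the replicate block (0.69, adjusted p = 0.072). Whether the rise differed between strains was tested by the interaction. It was larger in STR/ort than in C57BL/6 by 0.79 ± 0.26 (adjusted p = 0.093) and than in MRL/MpJ by 1.12 ± 0.28 (adjusted p = 0.12), neither of which was called. DESeq2 called both (0.80, adjusted p = 0.048, and 1.14, adjusted p = 0.014), as did edgeR without STR/ort uninjured replicate 1 (1.00, adjusted p = 0.024, and 1.34, adjusted p = 0.032), and without C57BL/6 uninjured replicate 3 it called the former (0.91, adjusted p = 0.045). At 2-weeks Ifi205 rose in STR/ort, where it had 3.39, 5.26, 4.49, 7.65 and 7.67 CPM in injured and 2.58, 3.48, 3.16, 2.60 and 2.07 in uninjured joints. These groups overlapped only through injured replicate 1 and uninjured replicate 2, and the difference was 1.04 ± 0.24 (adjusted p = 0.0023), with 4.66% of all genes called.

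Mnda, which shares much of its transcript sequence with Ifi205, rose at 1-day in C57BL/6 and MRL/MpJ. In C57BL/6 it had 14.7, 11.5, 10.6, 16.6 and 9.24 CPM in injured and 6.40, 8.19, 4.78, 7.69 and 6.45 in uninjured joints. In MRL/MpJ it had 3.55, 3.36, 6.64, 4.39 and 4.57 CPM in injured and 2.79, 2.17, 2.12, 3.08 and 2.05 in uninjured joints. Neither pair of groups overlapped. The rise was 0.90 ± 0.20 (adjusted p = 0.0013) in C57BL/6 and 0.90 ± 0.25 (adjusted p = 0.033) in MRL/MpJ. The latter call was lost without injured replicate 3 or 4 or uninjured replicate 1, 2, 3 or 5 (0.72 to 0.93, adjusted p = 0.053 to 0.13), and with 1 (0.85, adjusted p = 0.056) or 2 RUVg factors (0.86, adjusted p = 0.051). In STR/ort Mnda differed by 0.62 ± 0.25 (adjusted p = 0.11), and by 0.90 (adjusted p = 0.021) without uninjured replicate 1.

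Ifi204 rose in MRL/MpJ at 1-day, from 11, 11.2, 10.7, 13.2 and 11 CPM in uninjured to 17.0, 17.1, 19.6, 17.7 and 18.3 in injured joints. It also rose there at 1-week, from 8.26, 11.5, 11.5 and 10.3 CPM to 12.7, 17.8, 20, 14.6 and 13.1. Injured and uninjured joints did not overlap at either time. Ifi204 thus rose by 0.67 ± 0.18 at 1-day (adjusted p = 0.020) and by 0.62 ± 0.17 at 1-week (adjusted p = 0.025). The former was lost without injured replicate 3 or uninjured replicate 1, 2, 3 or 5 (0.64 to 0.65, adjusted p = 0.050 to 0.065), and the latter without injured replicate 2 or 3 or uninjured replicate 1 or 4 (0.50 to 0.62, adjusted p = 0.061 to 0.13) and with 2 RUVg factors (0.55, adjusted p = 0.12). In C57BL/6 at 1-day Ifi204 changed by 0.56 ± 0.15 (adjusted p = 0.0095), under the fold, and was called without injured replicate 1 (0.59) or uninjured replicate 2 (0.67), and with 2 RUVg factors (0.72, adjusted p = 0.00012). In STR/ort at 1-day it differed by 0.47 ± 0.17 (adjusted p = 0.074), and was called without injured replicate 3 (0.60) or uninjured replicate 2 (0.64). In STR/ort at 2-weeks it changed by 0.49 ± 0.15 (adjusted p = 0.020), under the fold, and was called without injured replicate 1 (0.63).

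In the strains that express it, Ifi202b was called higher with injury only in STR/ort at 1-day and in MRL/MpJ at 1-week. The injury contrast sets joints of 1 strain and time against each other and is not the one between strains that the family was picked on. In STR/ort at 1-day it had 53.1, 85.3, 41.9, 59.6 and 63.9 CPM in injured and 45.3, 53.2, 25.7, 34.0 and 40.6 in uninjured joints, and the groups overlapped. The change was 0.59 ± 0.16 (adjusted p = 0.018) and was lost without injured replicate 2 (0.44, adjusted p = 0.088), uninjured replicate 3 (0.46, adjusted p = 0.069) or uninjured replicate 4 (0.55, adjusted p = 0.046). It was also lost with 1 RUVg factor (0.46, adjusted p = 0.062) and when libraries of the other groups were kept out of the fit (0.61, adjusted p = 0.083). In MRL/MpJ at 1-week it had 21.4, 25.6, 28.5, 22.0 and 23.4 CPM in injured and 13.8, 16.2, 14.8 and 14.7 in uninjured joints, without overlap. That change, 0.73 ± 0.15 (adjusted p = 0.0015, 3.13% of all genes called), was kept whichever library was left out. In MRL/MpJ at 1-day the difference was 0.56 ± 0.18 (adjusted p = 0.079). Means of injured and uninjured STR/ort joints were 62.6 and 55.8 CPM at 1-week and 42.2 and 33.9 at 2-weeks. Those of MRL/MpJ at 2-weeks were 13.2 and 10.4 CPM, and none of these differences was called. In C57BL/6 the 34 libraries held too few reads for a fold change with injury to be given.

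No member was called in C57BL/6 or STR/ort at 1-week, with 5.82% and 9.21% of all genes called, or in MRL/MpJ or C57BL/6 at 2-weeks, with 1.16% and 2.95% called. Of the 7 members, 0, 2, 0 and 0 had an unadjusted edgeR p below 0.05 in these comparisons, and DESeq2 called 0 in each. In STR/ort at 1-week Pyhin1 had 18.1, 16.7, 10.6, 24.5 and 20.8 CPM in injured and 27.9, 17.5, 22.5 and 39.2 in uninjured joints. The difference was -0.57 ± 0.18 (adjusted p = 0.024), just under the fold. With the replicate block, which takes same-numbered joints as pairs, Pyhin1 was called lower in injured joints (-0.64, adjusted p = 0.00045). Correlations of these pairs were 0.102 to 0.231 and other pairs at 1-week reached 0.269, so they do not establish pairing. Pyhin1 was also called without injured replicate 4 (-0.71) or 5 (-0.63) or uninjured replicate 2 (-0.73) or 3 (-0.65), and with 1 (-0.63) or 2 RUVg factors (-0.75). Ifi205 in the same joints differed by 0.32 ± 0.23 (adjusted p = 0.35), and by 0.71 (adjusted p = 0.017) without uninjured replicate 1. At 2-weeks Pyhin1 in STR/ort differed by -0.50 ± 0.22 (adjusted p = 0.14), and was called lower without injured replicate 4 (-0.71) or uninjured replicate 1 (-0.68). Aim2 was not called by edgeR in any of 9 injury comparisons, and neither was Ifi203, whose log2 differences ranged from -0.19 to 0.18. Of 63 interaction tests of the members 0 were called by edgeR, 9 had an unadjusted p below 0.05, and DESeq2 called 2. The 63 include those of Ifi202b with C57BL/6, where its few reads left little chance of a call. Of all genes, edgeR called the interaction of STR/ort with MRL/MpJ, C57BL/6 with MRL/MpJ and STR/ort with C57BL/6 for 0.162%, 0.318% and 2.66% at 1-day, 0.884%, 0% and 0.491% at 1-week, and 0.451%, 0% and 0.0462% at 2-weeks.

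**Figure D5:**
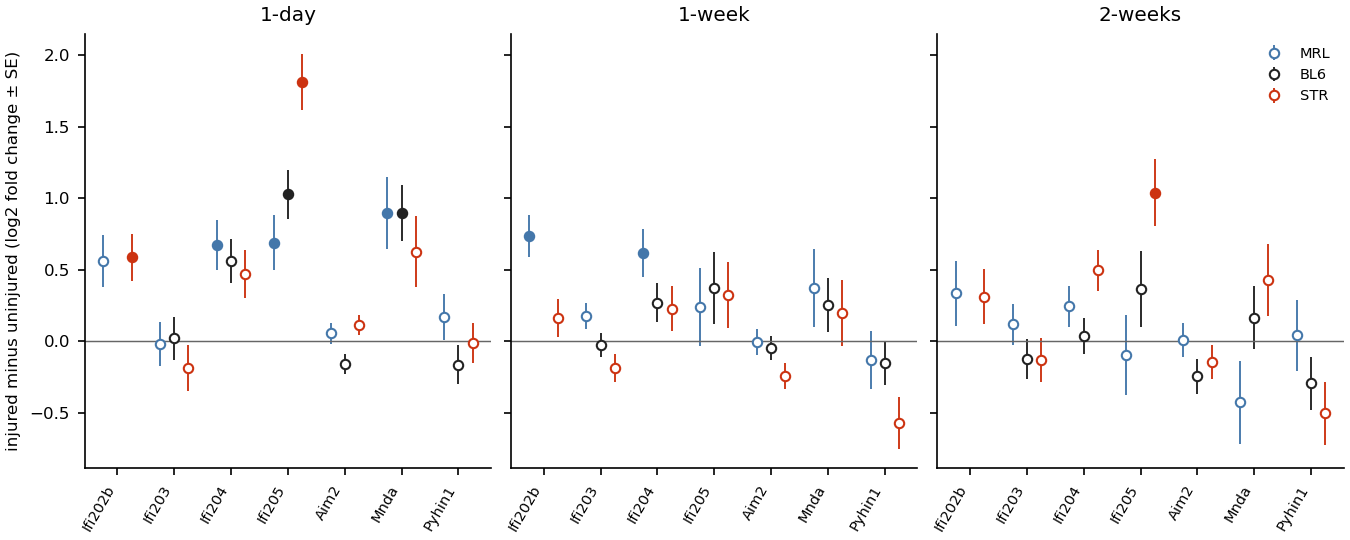
Log2 difference between injured and uninjured contralateral joints (± SE) of each member by strain and time, from edgeR, with filled points for called and open points for uncalled differences. Ifi205 at 1-day lies highest in STR/ort (1.81) and C57BL/6 (1.03), while in MRL/MpJ at 1-day Mnda (0.90) lies above Ifi205 (0.69), and Ifi202b in C57BL/6 is left out because of its few reads.

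Markers of other cell types and tissues were read in the comparisons in which members were called. At 1-day 3 of 12 macrophage and monocyte markers were higher in injured joints of MRL/MpJ, 5 of C57BL/6 and 3 of STR/ort, and none was lower. Their summed level overlapped between injured and uninjured joints, at 2824 to 3647 and 3188 to 3359 CPM in MRL/MpJ, 3489 to 4014 and 3032 to 4115 in C57BL/6, and 3295 to 3944 and 3206 to 3891 in STR/ort. Of 10 neutrophil markers none was called by edgeR in these 3 comparisons. Their summed level in C57BL/6 at 1-day was 10040 to 12840 CPM in injured and 14480 to 17910 in uninjured joints, without overlap, whereas the joints overlapped in MRL/MpJ (13760 to 18090 and 17180 to 17970) and STR/ort (13170 to 15950 and 14250 to 18720). Of 8 dendritic cell markers 1 was called, higher in injured C57BL/6 joints, and their summed level there was 434.2 to 503.3 CPM in injured and 290.8 to 370.4 in uninjured joints, also without overlap. In MRL/MpJ (218.4 to 312.6 and 209.5 to 282.0) and STR/ort (353.9 to 653.2 and 277.9 to 557.5) it overlapped. No marker of either list was at 0 in these groups. Skeletal muscle markers were lower in injured STR/ort joints (4 of 8 at 1-day and 7 of 8 at 1-week), with a summed level at 1-day of 15760 to 40460 against 29090 to 50540 CPM. At 1-week in MRL/MpJ 1 of 12 macrophage markers and 2 of 9 markers of cartilage, bone and synovium were higher in injured joints, and both summed levels overlapped (2940 to 3573 against 3244 to 3507 CPM, and 11090 to 14940 against 8636 to 12980). At 2-weeks in STR/ort, where Ifi205 was called, 6 of 9 markers of cartilage, bone and synovium were higher in injured joints and their summed level did not overlap, at 18850 to 25470 against 11510 to 15850 CPM. There 1 of 12 macrophage markers was higher, with an overlapping sum of 1925 to 2725 against 2007 to 2994 CPM. The part of these markers in the members' changes was not tested.

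Within batch 1 the members were also compared over time. In uninjured joints of STR/ort 3 of the 6 members other than Ifi202b were higher at 1-week than at 0-day, where 13.6% of all genes were called. Ifi205 rose by 1.30 ± 0.24 (adjusted p = 1.8e-05), Mnda by 0.85 ± 0.29 (adjusted p = 0.017) and Ifi204 by 0.65 ± 0.20 (adjusted p = 0.0076). Ifi202b, given as a description, had 66.7, 60.4, 45 and 51.0 CPM at 1-week, above the 34.6 to 37.3 of 0-day. The call of Ifi204 was lost without 0-day replicate 3 (0.55), 0-day replicate 4 (0.58) or 1-week replicate 1 (0.51), and that of Mnda without 0-day replicate 2 (0.68), 1-week replicate 1 (0.69) or 1-week replicate 2 (0.75). With 1 RUVg factor the calls of Ifi204 (0.39, adjusted p = 0.31) and Mnda (0.66, adjusted p = 0.23) were lost, and that of Mnda also when libraries of the other groups were kept out of the fit (0.87, adjusted p = 0.077). With the same factor Ifi203 (-0.60, adjusted p = 0.013, against -0.29 without) and Pyhin1 (-0.61, adjusted p = 0.025, against -0.03) were called lower. In the same comparison 4 of 12 macrophage markers were higher and 8 of 8 skeletal muscle markers were lower, with a summed muscle level of 26690 to 51190 against 72100 to 81260 CPM. Summed levels of macrophage markers (3374 to 4199 against 2287 to 3170 CPM) and of cartilage, bone and synovium markers (21030 to 35530 against 14770 to 17680, 4 of 9 higher) did not overlap either, and the part of these lists was not tested.

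In injured joints of STR/ort Aim2 (-0.69 ± 0.08, adjusted p = 3.4e-11) and Pyhin1 (-0.76 ± 0.16, adjusted p = 0.00014) were lower at 1-week than at 1-day, where 13.9% of all genes were called. Aim2 went from 48.8 to 55.9 CPM at 1-day to 27.3 to 38.0 at 1-week, without overlap, and Pyhin1 from 25.1 to 43.7 to 10.6 to 24.5. In the same comparison 7 of 7 B cell, 5 of 9 T and NK cell, 4 of 8 dendritic cell and 4 of 12 macrophage markers were lower and 4 of 9 markers of cartilage, bone and synovium were higher. The summed level of neutrophil markers was 8435 to 11990 CPM at 1-week against 13170 to 15950 at 1-day, without overlap. The part of all these lists was not tested. In injured joints of C57BL/6 Ifi205 (-1.23 ± 0.20, adjusted p = 4.6e-06) and Mnda (-0.63 ± 0.19, adjusted p = 0.016) were lower at 1-week than at 1-day, where 4.47% of all genes were called, as were 7 of 12 macrophage markers, with a summed level of 2938 to 3308 against 3489 to 4014 CPM, without overlap. There 1 of 8 dendritic cell markers was lower and 2 of 7 B cell markers were higher, and the part of these lists was not tested. Mnda was no longer called without 1-day injured replicate 1 (-0.57) or 4 (-0.49) or 1-week injured replicate 3 (-0.56), or with 1 (-0.57) or 2 RUVg factors (-0.58). In uninjured C57BL/6 joints Ifi205 was lower at 1-week than at 0-day by the narrowest margin (-0.64 ± 0.23, adjusted p = 0.0498, 5.72% of all genes called), and the call was lost when any of 55 of the 70 libraries was left out, with RLE size factors (-0.62, adjusted p = 0.059) and in 1 fit of all 100 libraries (-0.60, adjusted p = 0.059). The summed level of cartilage, bone and synovium markers there was 7007 to 12570 CPM at 1-week against 15070 to 24160 at 0-day, without overlap. That of skeletal muscle markers overlapped, at 39930 to 70100 against 31460 to 50570 CPM, and the part of both was not tested. In MRL/MpJ none of 21 member comparisons over time was called by edgeR or DESeq2, and 3 had an unadjusted edgeR p below 0.05, with 0.0924% (0-day to 1-day, uninjured), 0% (0-day to 1-week, uninjured) and 3.11% (1-day to 1-week, injured) of all genes called. From 0-day to 1-day no member was called by edgeR in uninjured C57BL/6 or STR/ort joints, where 0.0693% and 9.92% of all genes were called. In C57BL/6 0 and in STR/ort 3 members had an unadjusted p below 0.05 there, and DESeq2 called 0 and 1. The latter was Ifi205 in STR/ort (-0.61 ± 0.26, adjusted p = 0.072, with edgeR), which edgeR called without 1-day uninjured replicate 1 (-0.82) or 1-week uninjured replicate 1 or 3 (-0.61 each). With RUVg edgeR called Ifi203 lower there (-0.62 with 1 factor, adjusted p = 0.035, and -0.65 with 2, adjusted p = 0.028, against -0.29 without).

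Other genes of the family in the table were Mndal, Pydc3 (now Ifi208), Pydc4 (now Ifi213), AI607873 (now Ifi207), Ifi203-ps and BC094916, 6 of 21 listed. Pydc3, Pydc4 and AI607873 were higher in C57BL/6 than in MRL/MpJ in all 7 settings, by 2.17, 4.17 and 1.43 on the log2 scale at 0-day. Pydc4 had 1.53 to 2.65 CPM in C57BL/6 at 0-day and at most 1 and 2 reads per library in MRL/MpJ and STR/ort, so its fitted change depends on the prior count. AI607873 rose with injury at 1-day in C57BL/6 (0.68, adjusted p = 0.00045). Mndal was lower in STR/ort than in C57BL/6 in all 7 settings, from -0.62 at 0-day, a description, to -1.47 in uninjured joints at 2-weeks. Mndal was also lower in STR/ort than in MRL/MpJ in 4 of 7 settings, at 1-day and 2-weeks. The pseudogene Ifi203-ps ran the other way from Pydc3, Pydc4 and AI607873. It was lower than in MRL/MpJ at 0-day in both C57BL/6 (-1.62, adjusted p = 0.044) and STR/ort (-1.71, adjusted p = 0.044), in C57BL/6 also in uninjured joints at 1-day (-2.48) and in STR/ort in all 7 settings. Ifi203-ps had 0 to 7 reads per library at 0-day, so these fitted changes depend on the prior count. BC094916, which was not matched to the annotation, had 1 to 15 reads at 0-day. Against MRL/MpJ it was lower in injured STR/ort joints at 1-week (-1.26) and higher at 2-weeks in STR/ort (2.03 uninjured, 1.31 injured) and in uninjured C57BL/6 joints (1.39).

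Of 30 interferon-stimulated genes on a list that holds no member, 21 were higher in C57BL/6 than in MRL/MpJ at 0-day (median log2 difference 0.91) and none was lower, against 15.9% of all genes called in either direction. In STR/ort 15 were higher and 1 lower than in MRL/MpJ (median 0.65), against 14.8% of all genes. In the 6 later settings 15 to 22 of the 30 were higher in C57BL/6 than in MRL/MpJ and 0 or 1 lower, with 8.53% to 16.3% of all genes called. With injury 1 of 30 was called, lower, in STR/ort at 1-week, and none in the other 8 comparisons. Among 12 genes of the AIM2 inflammasome, led in level by Casp8, Gsdmd and Casp1, 2 were higher with injury at 1-day in C57BL/6 (5.6% of all genes called) and 2 in STR/ort (4.31%). At 0-day 1 of the 12 was higher and 1 lower in C57BL/6 than in MRL/MpJ, a share close to the 15.9% of all genes. Among 18 genes of cytosolic nucleic acid sensing, 4 were higher in C57BL/6 than in MRL/MpJ at 0-day, next to the same 15.9%, and none was called with injury. Of 9 measured interferon and interferon receptor genes, 1, 2 and 1 were higher with injury at 1-day in MRL/MpJ, C57BL/6 and STR/ort, next to 2.02%, 5.6% and 4.31% of all genes called.

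Genes around the cluster on chromosome 1 were counted in the same way. Of 30 measured neighbours, 8 were higher and 3 lower in C57BL/6 than in MRL/MpJ at 0-day, where 15.9% of all genes were called, and 5 were higher and 4 lower in STR/ort than in MRL/MpJ, where 14.8% were. Named after their values were seen, Ackr1, a chemokine receptor of red cells and venules, was lower than in MRL/MpJ in both C57BL/6 (a log2 difference of -0.67) and STR/ort (-0.59). Fcer1a, the alpha chain of the IgE receptor, was higher in both (0.74 and 0.89).

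The genes most like Ifi202b over the 21 group means of log2 CPM, as Pearson r, were Marcksl1-ps4 (0.99), Serpina3h (0.989), Masp2 (0.983), Wdfy1 (0.983) and 4931408C20Rik (0.982). Of these, 4931408C20Rik had a median of 0 CPM in C57BL/6, 4.99 in MRL/MpJ and 6.89 in STR/ort, and Serpina3h had medians of 0.18, 3.14 and 7.25. For Ifi203 the closest genes were Rsad2 (0.946), 9430037G07Rik and Gm16793, for Ifi204 Ifitm3 (0.947), Muc1 and 4930503L19Rik, and for Pyhin1 Oasl2 (0.964), Cpm and Stat4. Mnda was most like Pde3b (0.938), Elac1 and Adgre1, and Aim2 most like Cd40 (0.921), Dnajc7 and Rnase6. Within the family r was highest for Ifi204 with Mnda (0.931) and lowest for Ifi202b with Ifi203 (-0.926). All these points share their libraries and the values carry the strain differences, so r is a description. Over the 100 single libraries, 3 of the 5 genes named for Ifi202b were also among its 5 closest. Of the 3 genes named for each other member, 1 was found again for Ifi203, Ifi204 and Aim2, 2 for Mnda and 3 for Pyhin1.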

How the data were processed

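RNA sequencing counts of 100 mouse knee joint libraries in 21 groups were used. Per the labels, poly(A) RNA was sequenced and the authors aligned reads to mm10 with TopHat2 2.0.11 and deposited whole-number counts per gene made with featureCounts. Multimapping and strand settings were not given in the sources used here. Of 17313 listed genes, 3 repeats were left out. The low-count filter (2 or more counts in 5 or more libraries) took away 0 of the remaining 17310.

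Counts were fitted with edgeR 4.0.16 in R 4.3.3 (TMM, quasi-likelihood test) separately for the 12, 30, 28 and 30 libraries of each time, and for the 70 libraries of batch 1 over time. P-values were adjusted by Benjamini-Hochberg over all 17310 genes, and a call needed an adjusted p below 0.05 and a fold above 1.5. Log2 levels for likeness used a prior count of 2. The genes most like Ifi205 are not reported here. The authors themselves normalized with RUVSeq from 25 housekeeping genes and did not state the number of factors. TMM was therefore the main setting here, and RUVg with the same genes and 1 or 2 factors was an alternative. Other alternatives were DESeq2 1.42.0, other size factors, 1 fit of all 100 libraries, the compared groups only, a replicate block and leaving out each library. The scripts were tested on simulated data.

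Total counts of 6182016 to 20986027 set the depth. None of 190 pairs of libraries within groups was identical. Where the labels do not name separate animals, p-values measure the spread between these samples. At 2-weeks the labels tie the joints of an animal, so replicate numbers pair them, with correlations of -0.161 to 0.262. In STR/ort at 1-week all 4 pairs correlated above 0.1 (0.102 to 0.231). Pairs of C57BL/6 at 1-week reached 0.269, so these values do not establish pairing. The main test used no pairs at any time, and the replicate block did.

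The members and gene lists were chosen with earlier results of these data known. The rule for named genes held the 7 members, the other family genes in the table, the 3 genes of highest mean CPM of each other list, and, per member, the 5 (Ifi202b) or 3 genes with the highest Pearson r over group means. Ackr1 and Fcer1a fall outside it and were chosen after their values were seen.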

Additional observations from a re-analysis of the deposited data

Results flagged for a closer look

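In 9 of 147 combinations of member and group, 1 library lay far from the other libraries of its group by Dixon's test, in 8 groups, and chance flags about 1 in 20. Ifi202b had 1.108 CPM in replicate 5 of uninjured C57BL/6 joints at 2-weeks, against 0 to 0.1892 in the others. Ifi204 had 13.19 CPM in uninjured MRL/MpJ replicate 4 at 1-day (others 10.73 to 11.16) and 39.37 CPM in uninjured C57BL/6 replicate 2 at 1-day (others 26.89 to 29.8). Ifi205 had 14.87 CPM in injured STR/ort replicate 5 at 1-day (others 9.738 to 10.67). Aim2 was low, at 28.07 CPM, in MRL/MpJ replicate 3 at 0-day (others 31.55 to 32.07). Mnda had 2.583 CPM in uninjured MRL/MpJ replicate 3 at 2-weeks (others 0.8723 to 1.283) and a low 2.646 CPM in injured C57BL/6 replicate 2 at 2-weeks (others 3.538 to 3.687). Pyhin1 had 17.06 CPM in uninjured MRL/MpJ replicate 4 at 1-day (others 11.6 to 13.17) and a low 4.947 CPM in injured MRL/MpJ replicate 4 at 2-weeks (others 9.346 to 10.74).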

How the results depend on the processing

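Of 323 member comparisons 107 were called, and 74 of these calls were kept under every alternative, 89 with every library left out and 73 under all. These counts include Ifi202b against MRL/MpJ and over time, whose levels the choice of the family used. Counted without it, a choice made after seeing the data, strain calls were 6 at 0-day and 34 each in uninjured and injured joints later. Of the 216 others, 15 were called under an alternative and 17 with a library left out. The difference of Pyhin1 between STR/ort and MRL/MpJ in injured joints at 1-week reversed to -0.16 with 2 RUVg factors. With the same factors the calls against MRL/MpJ at 0-day went from 8 to 5, and DESeq2 called 2 interactions where edgeR called 0. The causes were not tested. With single libraries left out, calls ranged from 7 to 11 for injury, 0 to 2 for interactions, 7 to 9 for strains at 0-day, 38 to 41 in uninjured and 39 to 42 in injured joints, and 7 to 10 over time.

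With the replicate block 10 injury calls and 0 interaction calls were made. The block removed the call of Ifi205 in MRL/MpJ at 1-day (0.69, adjusted p = 0.072) and added that of Pyhin1 in STR/ort at 1-week. At 1-day and 1-week the joints are taken to share only a number, with median correlations of the pairs of 0.085 and 0.097. Scaling by total counts in place of TMM shifted 6 of 147 group means by at least 1 SD of their group. Depth limits Ifi202b in C57BL/6, where 29 of 34 libraries held at most 3 reads.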

Other observations

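B cell and T and NK cell markers differed between the strains at 0-day beside the members. Of all genes, 15.9% were called between C57BL/6 and MRL/MpJ and 14.8% between STR/ort and MRL/MpJ. Of 7 B cell markers 6 were higher in C57BL/6 than in MRL/MpJ (median log2 difference 0.89) and 5 in STR/ort than in MRL/MpJ (0.70). Of 9 T and NK cell markers 1 was higher and 3 lower in C57BL/6, and 1 was higher and 5 lower in STR/ort. Of 8 dendritic cell markers 2 were higher in C57BL/6 and 1 in STR/ort, which does not set them apart from the shares of all genes.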
